A study of Mus musculus with 4 samples.

Results

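Acute phase and complement genes were followed in mouse embryonic 3T3 fibroblasts, an immortal line, exposed to the inflammatory cytokine tumour necrosis factor (TNF). The members were all probe sets that the platform annotation assigns to Lcn2, Saa1, Saa3, Ptx3, Cfb or C1s1, plus a probe set which that annotation does not list. No gene name is given to it here; it is called the unlisted probe set, and its ID stands in the plots. This made 9 of the 45101 probe sets on each array. The study holds 4 arrays, with 1 array in each group: basal cells kept overnight in 0.5% serum and not given TNF, and cells kept the same way and then given TNF for 0.5, 2 or 12 h. Cells of the 0.5 h and 12 h arrays had TNF at 10 ng/ml. The treatment protocol given for the 2 h array repeats that of the basal array and states no TNF concentration. Only the title and source name of that sample place it at 2 h of TNF, and every 2 h value below rests on them. The series title asks how mRNA stability relates to the order of inflammatory gene induction; RNA levels were measured here, and stability was not.

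Acute phase proteins are secreted when tissue is inflamed, mostly by the liver but also locally by fibroblasts, epithelium and macrophages. TNF, interleukin-1 and interleukin-6 raise many of their genes through the transcription factors NF-kB, C/EBP and STAT3. Complement is a cascade of plasma proteases that tags microbes and calls in phagocytes, and several of its components behave as acute phase proteins.

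Of the 9 probe sets 8 reached a signal above 9.08, the floor set by the 30th percentile of all values, on some array and were analysed. At 12 h of TNF 6 of the 8 stood at least 2-fold above basal, those of Lcn2, Saa3, Ptx3, Cfb and C1s1 and the unlisted one, and 0 stood lower; of all 38167 probe sets analysed 2.82% were higher at this time. Of the 6, Cfb and the unlisted one were under the floor in basal cells, so they could only be equal or higher. Lcn2 was 14.2-fold higher at 12 h than in basal cells, and the unlisted probe set at least 39.6-fold. The rises of Saa3, Ptx3 and C1s1 lay between 2.30-fold and 2.57-fold. The Ptx3 probe set of high signal had already risen at 2 h, while Lcn2, Saa3 and C1s1 were past 2-fold above basal at 12 h and not before. For Cfb the 2 h ratio is a lower bound, at least 1.61-fold, so whether it was past 2-fold at 2 h cannot be read from these signals. No group has a replicate, so no error between replicates exists, 0 tests were run, and "rose", "fell", "higher" and "lower" as calls mean a difference of at least 2-fold.

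The bases before the start sites of these genes are shown because all the members with a RefSeq promoter share one kind of short match there. RefSeq promoter sequence of the GRCm38.p6 assembly was found for 5 of the 6 named genes, in 6 windows of 250 bases that end just before a transcript start, since C1s1 has 2 starts. Capitals mark matches to the C/EBP motif TTGCNNAA, which reads TTNNGCAA when it lies on the other strand.

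Lcn2, chr2:32387740-32387989, minus strand: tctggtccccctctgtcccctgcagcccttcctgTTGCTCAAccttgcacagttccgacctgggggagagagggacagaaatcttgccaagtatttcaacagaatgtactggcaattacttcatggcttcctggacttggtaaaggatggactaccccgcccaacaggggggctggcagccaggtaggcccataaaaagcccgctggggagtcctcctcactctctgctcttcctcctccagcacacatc
Saa3, chr7:46715677-46715926, minus strand: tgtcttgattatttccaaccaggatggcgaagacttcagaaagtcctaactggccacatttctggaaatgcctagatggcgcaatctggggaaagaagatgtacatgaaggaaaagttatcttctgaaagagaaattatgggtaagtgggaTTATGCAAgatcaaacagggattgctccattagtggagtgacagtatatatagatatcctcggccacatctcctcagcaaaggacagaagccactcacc
Saa1, chr7:46742981-46743230, minus strand: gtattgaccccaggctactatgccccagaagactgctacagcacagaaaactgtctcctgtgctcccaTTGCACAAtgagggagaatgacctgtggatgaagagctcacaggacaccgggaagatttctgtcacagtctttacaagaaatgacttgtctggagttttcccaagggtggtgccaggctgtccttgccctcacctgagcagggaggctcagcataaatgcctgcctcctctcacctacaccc
Ptx3, chr3:66219637-66219886, plus strand: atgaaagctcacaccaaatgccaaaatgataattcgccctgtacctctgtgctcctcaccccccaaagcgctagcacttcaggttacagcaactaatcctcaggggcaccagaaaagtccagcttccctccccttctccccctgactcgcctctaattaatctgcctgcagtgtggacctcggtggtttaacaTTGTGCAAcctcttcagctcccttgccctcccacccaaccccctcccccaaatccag
C1s1, first start, chr6:124542360-124542609, minus strand: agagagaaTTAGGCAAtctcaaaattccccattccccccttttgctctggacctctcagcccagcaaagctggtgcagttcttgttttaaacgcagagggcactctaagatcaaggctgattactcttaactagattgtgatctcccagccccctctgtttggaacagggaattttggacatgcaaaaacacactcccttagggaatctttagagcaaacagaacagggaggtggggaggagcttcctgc

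Of the 6 windows, 5 held a C/EBP match, 1 in each of the 5 genes, and the window of the other C1s1 start held none. The first base of the match lay 57 bases before the start in Ptx3, 99 in Saa3, 182 in Saa1, 216 in Lcn2 and 242 in C1s1. Among all 32851 RefSeq windows of this length, 9.56% held such a match, and by gene the share was 10.8% of 27025 genes. The kB motif, for NF-kB proteins, was also searched on both strands, in the spelling GGGRNNYYCC, which reads GGRRNNYCCC on the other strand. Of the 6 windows 0 held it, against 7.25% of all windows. Looser spellings of this motif were not searched, so sites that differ from it by a base are not counted. The motifs were chosen with earlier results of these data known, so the counts beside these shares are a description and no test. These matches describe letters in a window, and binding was not measured.

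The arrays differed slightly in overall level. The median log2 ratio to basal over the 45037 probe sets other than controls was -0.05 at 0.5 h, -0.12 at 2 h and -0.20 at 12 h. Signals under the floor of 9.08 were lifted to it; where this touched 1 side of a ratio, the ratio is a bound and is given as "at least". Of all probe sets, 38167 lay above the floor on some array and were analysed. At the floor of 9.08, 2.82% of those probe sets rose and 5.86% fell at 12 h, and after centring each array on its median the shares were 3.83% and 4.14%. At 2 h 2.86% rose and 4.12% fell, with 3.45% and 2.94% after loess scaling, and at 0.5 h 2.96% rose and 3.52% fell. No time-matched array without TNF was analysed here, so TNF and elapsed time cannot be told apart.

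The cells carried most of the fibroblast markers looked up. Of 12 fibroblast markers 9, among them Col1a1, Pdgfrb and Vim, exceeded a signal of 102, the 75th percentile of all values, on at least 1 array, and the summed signal of the 12 lay between 35303 and 36602. Thy1, Dcn and Lum did not exceed 102, with signals of at most 20.7. Of 12 hepatocyte markers 0 exceeded 102, and Alb, Ahsg and Serpina1b were at the floor on all 4 arrays; the summed signal was 78.8 (basal), 140.0 (0.5 h) and 122 (2 h and 12 h). Of 11 macrophage and leukocyte markers with an annotated probe set 1, Cd14, exceeded 102. Ptprc, Itgam and Cd3e were at the floor on all 4 arrays, and the sum lay between 273 and 303. The adipocyte sum, nearly all of it Fabp4, was 1929.9 (basal), 1947 (0.5 h), 1737 (2 h) and 1519 (12 h). Epithelial markers summed to between 234 and 316 and endothelial ones to between 82.1 and 96.0, and 1 epithelial marker, Krt19, exceeded 102. The part of these marker levels in the results was not tested. In a bulk culture fewer cells of a type and less RNA per cell cannot be told apart.

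Lcn2 encodes lipocalin 2, a secreted protein that withholds iron from bacteria by binding their siderophores. Its probe set 1427747_a_at gave a signal of 11.1 (basal), 11.3 (0.5 h), 20.04 (2 h) and 158 (12 h). The 12 h array stood apart from the other three, of which the basal and 0.5 h arrays lay just above the floor. The log2 ratio to basal was 0.03 at 0.5 h, 0.85 at 2 h and 3.83 at 12 h, and the 12 h signal was 7.90-fold that at 2 h. With the floor at 102, which raised the basal signal, the 12 h log2 ratio was at least 0.63, a bound that did not reach 2-fold. Among the 38167 analysed probe sets this 12 h rise ranked 9th from the top. Its C/EBP match is the one printed above 216 bases before the start.

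The serum amyloid A genes encode small apolipoproteins that travel on high-density lipoprotein, and in mice Saa3 is a form made largely outside the liver. Saa3 (1450826_a_at) gave a signal of 29.1 (basal), 11.3 (0.5 h), 27.0 (2 h) and 74.8 (12 h). The 0.5 h array was the low one and the 12 h array the high one, with the basal and 2 h arrays close together. Saa3 was thus 2.57-fold lower at 0.5 h than in basal cells, at a log2 ratio of -0.11 at 2 h, and 2.57-fold higher at 12 h. With the floor at the median of all values, 21.0, which raised the 0.5 h signal, the 0.5 h log2 ratio was -0.47 or lower, a bound that did not reach 2-fold. At signals of this range, with a mean between 21.0 and 102, 2.33% of probe sets fell at 0.5 h and 2.43% rose at 12 h.

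Saa1 encodes an acute phase form made in the liver. The probe set 1419075_s_at, annotated to Saa1, gave a signal of 8.15 (basal), 20.1 (0.5 h), 10.2 (2 h) and 12.7 (12 h). It was at least 2.21-fold higher at 0.5 h, and the other 3 arrays lay close to the floor. Between the floor and a mean signal of 21.0, 5.28% of probe sets rose at 0.5 h. The accession behind this probe set belongs to Saa2 in the RefSeq table, and Saa1 and Saa2 are near-identical neighbours, so the 2 genes cannot be separated by it. The other Saa1 probe set, 1450788_at, gave 1.74 (basal), 1.14 (0.5 h), 1.64 (2 h) and 2.97 (12 h), under the floor throughout, and was not analysed. The probe set of Saa2 itself (1449326_x_at) gave 9.78 (basal), 8.45 (0.5 h), 7.28 (2 h) and 13.8 (12 h).

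Ptx3 encodes pentraxin 3, a soluble pattern-recognition protein that fibroblasts and macrophages make on contact with inflammatory cytokines and that binds complement C1q. Its probe set 1418666_at gave a signal of 1354 (basal), 1967 (0.5 h), 2843 (2 h) and 3114 (12 h). Each later array was higher than the one before, and all 4 lay far above the floor. The log2 ratio to basal was 0.54 at 0.5 h, short of the 2-fold rule, 1.07 at 2 h and 1.20 at 12 h, and the 12 h signal was 1.10-fold that at 2 h. Among the 11207 probe sets with a mean signal over 102, 0.5% rose at 2 h and 0.553% at 12 h. The second Ptx3 probe set, 1456903_at, gave 29.4 (basal), 51.4 (0.5 h), 33.3 (2 h) and 22.6 (12 h), with log2 ratios of 0.81, 0.18 and -0.38. The 2 probe sets therefore disagreed in direction at 12 h, and which parts of the transcript they read is not given in the sources used here.

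Cfb encodes factor B, the protease of the alternative complement pathway. Cfb (1417314_at) gave a signal of 4.98 (basal), 1.66 (0.5 h), 14.6 (2 h) and 33.3 (12 h). The basal and 0.5 h arrays were under the floor and the 2 h and 12 h arrays above it. The ratio to basal was at least 1.61-fold at 2 h and at least 3.67-fold at 12 h. With the floor at 21.0 the 12 h log2 ratio was at least 0.67, a bound that did not reach 2-fold, and with no floor the 2 h log2 ratio was 1.55. Between the floor and a mean signal of 21.0, 4.61% of probe sets rose at 12 h.

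C1s1 encodes the protease C1s, which cleaves C4 and C2 in the classical pathway once C1q has bound its target. C1s1 (1424041_s_at) gave a signal of 233 (basal), 246 (0.5 h), 304 (2 h) and 587 (12 h). The 12 h array was the high one, and the first 3 arrays differed by no more than 1.30-fold. The log2 ratio to basal was 0.08 at 0.5 h, 0.38 at 2 h and 1.33 at 12 h, and the 12 h signal was 1.93-fold that at 2 h.

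The unlisted probe set gave a signal of 3.92 (basal), 27.6 (0.5 h), 47.7 (2 h) and 360.0 (12 h). The basal array lay under the floor, and each TNF array was above it and above the one before. The ratio to basal was at least 3.03-fold at 0.5 h, at least 5.25-fold at 2 h and at least 39.6-fold at 12 h. At the floor of 9.08 the 12 h bound ranked 3rd among the 38167 probe sets. The rise from 2 h on needed no floor, and the 12 h signal was 7.55-fold that at 2 h.

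**Figure D1:**
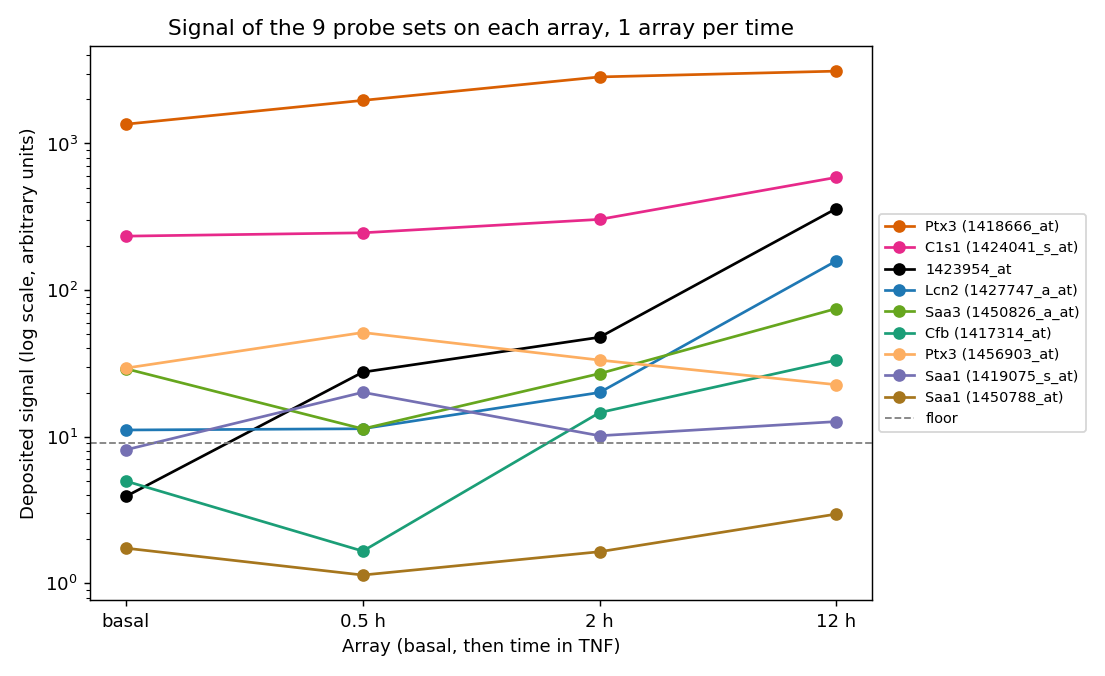
Deposited signal (log axis, arbitrary units) of the 9 probe sets on the basal array and on the arrays at 0.5, 2 and 12 h of TNF, with 1 point per array and the floor of 9.08 as a dashed line. Lcn2 and the unlisted probe set climb steeply between 2 h and 12 h, to 158 and 360.0, while the Ptx3 probe set of high signal climbs mostly before 2 h; heights of different probe sets are not comparable.

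The members' counts can be set against those of all probe sets at each time. At 0.5 h 2 of the 8 analysed probe sets were higher, Saa1 (1419075_s_at) and the unlisted one, against 2.96% of all, and 1, Saa3, was lower, against 3.52%; the members' median log2 ratio was 0.31, against -0.02 over all 38167. At 2 h 2 were higher, Ptx3 (1418666_at) and the unlisted one, against 2.86% of all, and 0 lower, against 4.12%, the median being 0.53 against -0.08. At 12 h 6 were higher, against 2.82%, and 0 lower, against 5.86%, the median being 1.35 against -0.14. Cfb, Saa1 (1419075_s_at) and the unlisted probe set were under the floor in basal cells and entered through TNF arrays, so they could only be equal or higher. Of the 5 probe sets above the floor on all 4 arrays, 0 rose at 0.5 h. Both rises of that time thus came from probe sets under the floor in basal cells. Ptx3 (1418666_at) was the only 1 of these 5 to rise at 2 h. On the 12 h array 4 of the 5 were higher than basal. No share over all probe sets above the floor on every array is given to set beside these counts. Relative to the median shift of -0.20 at 12 h, the rises were 16.3-fold for Lcn2, 2.95-fold for Saa3, 2.89-fold for C1s1 and 2.64-fold for Ptx3 (1418666_at). The 9 probe sets were chosen with earlier results of these arrays known, so their count is a description.

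**Figure D2:**
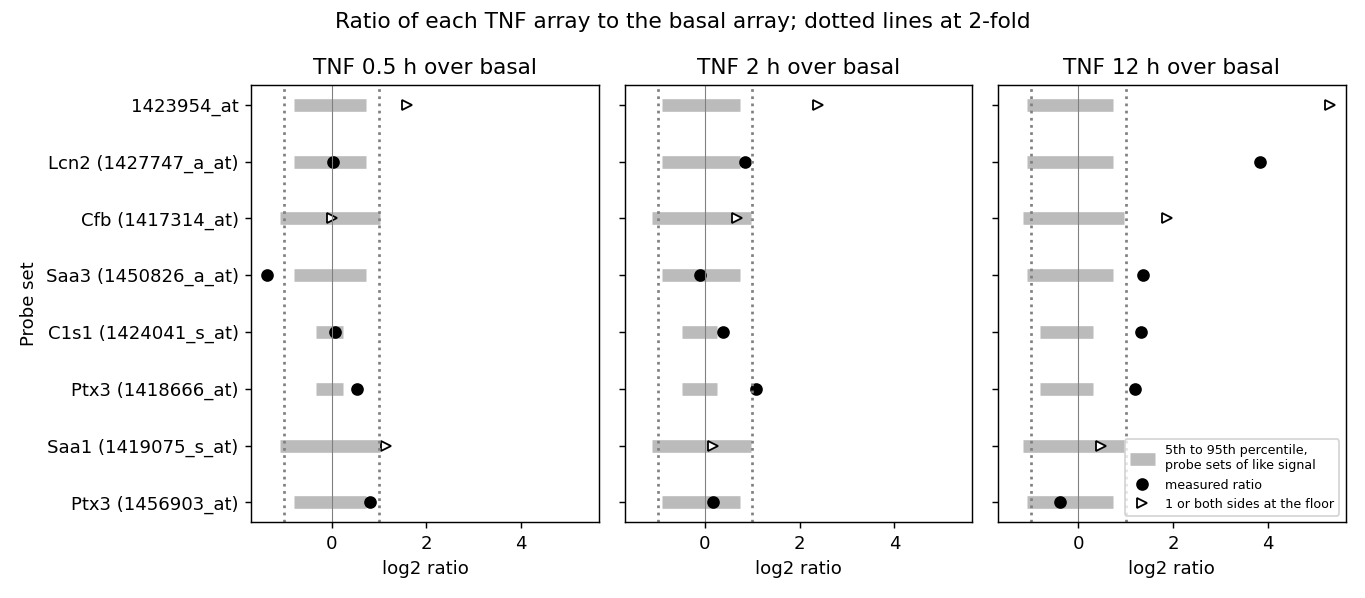
TNF-over-basal log2 ratio at each time for the 8 analysed probe sets (points; open triangles where 1 or both sides were at the floor), over grey bars that span the 5th to 95th percentile of probe sets with a like mean signal; dotted lines mark 2-fold. At 12 h 6 points lie right of the upper dotted line and right of their grey bars, and at 0.5 h Saa3 lies left of the lower one.

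The members that were higher at 12 h differed in how much of their 12 h difference was present earlier. Ptx3 (1418666_at) had 34.8% of its basal-to-12 h difference in signal at 0.5 h and 84.6% at 2 h. C1s1 had 3.52% at 0.5 h and 19.8% at 2 h. Lcn2 had 0.148% at 0.5 h and 6.06% at 2 h. With basal raised to the floor, the unlisted probe set had 5.27% and 11.0% at these times and Cfb 0% and 22.8%. Saa3 was below basal at both, at -38.9% and -4.68% of its 12 h difference. The fold bounds of the unlisted probe set at 0.5 and 2 h, past 2-fold on low signals, thus went with a small part of its 12 h difference.

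**Figure D3:**
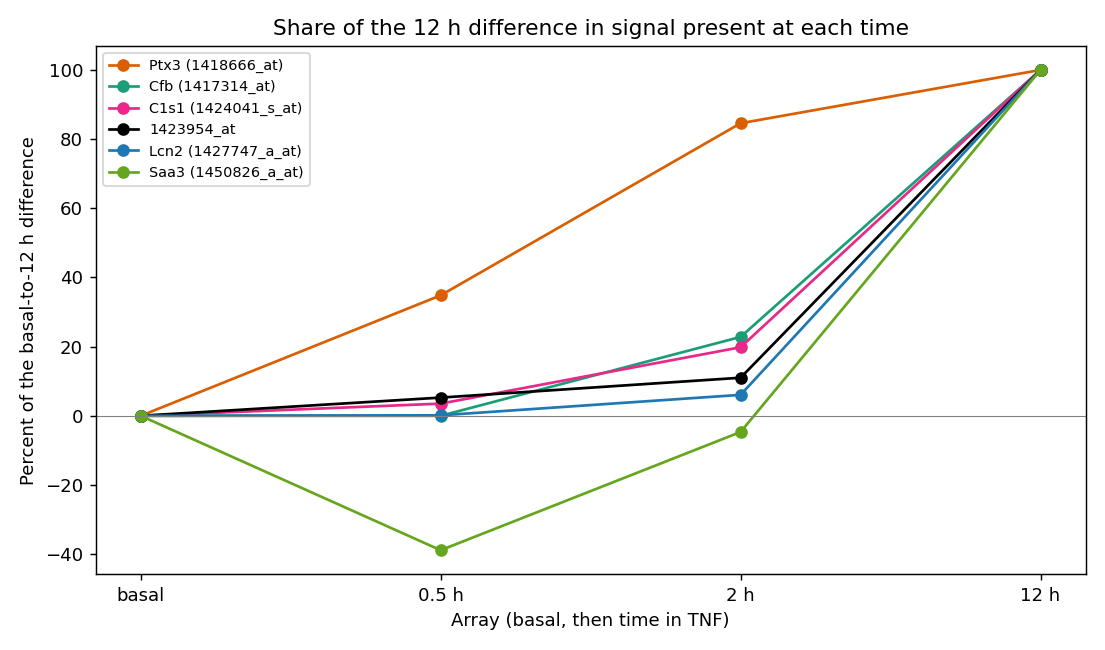
Percent of the difference between the basal and 12 h signals that was present on each array, for the 6 probe sets that were higher at 12 h (signals raised to the floor of 9.08). Ptx3 reaches 84.6% at 2 h, the other 5 lie at or under 22.8% there, and Saa3 dips below its basal level at 0.5 h.

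Other acute phase genes were looked up through a list of 36, of which 31 had a probe set annotated to them alone and 21 were analysed. Here and in the lists below, a gene without one may still be read by a probe set that the annotation does not list. A gene was represented by its probe set of highest mean log2 signal, and 16269 genes were analysed in this way. Of the 21, 0 rose and 1 fell at 0.5 h, 3 rose and 1 fell at 2 h, and 3 rose and 0 fell at 12 h. Their median log2 ratio at 12 h was 0.05, against -0.14 over all genes. Over all genes 2.55% rose and 2.96% fell at 0.5 h, 2.58% and 3.6% at 2 h, and 2.79% and 5.18% at 12 h. Relative to the median shifts given above, 2.95% of genes rose and 2.56% fell at 0.5 h, 3.41% and 2.69% at 2 h, and 4.63% and 2.87% at 12 h; of the list 0, 4 and 5 rose at these times, Saa4 being added at 2 h and Crp and Il1rn at 12 h. Mt2, a metallothionein that binds zinc, was the one gene of the list to pass 2-fold with a signal over 102, at 289 (basal), 503 (0.5 h), 943 (2 h) and 1239 (12 h). Its relative Mt1 gave 592, 671, 874 and 816 on these arrays in the same order, within 2-fold. The second Mt1 probe set (1451612_at), of low signal, gave 24.0 at 2 h, a log2 ratio of 1.24, and was under the floor at 12 h. Il1rn, the gene of the interleukin-1 receptor antagonist, gave 107, 153, 133 and 196, with a log2 ratio of 0.87 at 12 h and 1.07 relative to the median shift. Of its other probe sets, 1425663_at gave 43.2 (basal) and 91.8 (12 h), a log2 ratio of 1.09, and 1423017_a_at gave 0.69 at 12 h. Cd14, a receptor for bacterial lipopolysaccharide, lay between 93.5 and 111. The other genes past 2-fold were of low signal: Crp and Hpx at 2 h and Cp and Ptx4 at 12 h were higher, with signals of at most 49.0, and Ltf fell at 0.5 and 2 h. Crp, Hpx, Cp, Ptx4 and Saa4 were under the floor in basal cells, so their ratios are bounds and could only be equal or higher. Ltf was under the floor at 0.5 and 2 h, so its falls are bounds too.

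The list of further complement components and proteases held 26 genes, of which 17 had a probe set annotated to them alone and 13 were analysed. At 0.5 h 1 rose (C6) and 1 fell (Masp2), at 2 h 1 rose (Fcna) and 1 fell (Masp2), and at 12 h 1 rose (C9) and 0 fell; these 4 genes stayed at signals of at most 25.7. C6 and C9 were under the floor in basal cells, so they could only be equal or higher. Masp2 was under the floor at 0.5 and 2 h, so its falls are bounds. C1ra, which encodes the protease C1r that activates C1s, gave 201 (basal), 199.5 (0.5 h), 259.8 (2 h) and 324 (12 h). Its log2 ratio at 12 h was 0.69, short of 2-fold, with the 2 h and 12 h arrays above the first 2. Masp1, a protease of the lectin pathway, lay between 574 and 653. Cfp, encoding properdin, which stabilises the alternative pathway convertase, lay between 48.8 and 58.7. Of 17 analysed complement regulators and receptors 0 rose at any of the 3 times without scaling, and C5ar1 alone fell, at 0.5 h, to a signal of 10.2 against 21.6 in basal cells. Relative to the median shift 2 just passed 2-fold at 12 h, Clu at a log2 ratio of 1.01 and Cd46 at 1.02, against 0.81 and 0.82 without it; with each array centred on its own median they were at 0.96 and 0.97, short of 2-fold. Cr1l, a membrane regulator of complement in rodents, gave 315, 331, 306 and 387, and Cd59a, an inhibitor of the membrane attack complex, lay between 194 and 222. Of the other Cr1l probe sets, both of low signal, 1430131_at was under the floor in basal cells and gave a log2 ratio of at least 1.21 at 12 h. The other, 1438920_x_at, gave -0.41 at 12 h. C1qbp, a mitochondrial protein also known to bind C1q, lay between 2768 and 3371.

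Some factors that act upstream of acute phase genes rose at each of the 3 times. Of 24 analysed, 7 rose and 0 fell at 0.5 h, 8 rose and 0 fell at 2 h, and 3 rose and 2 fell at 12 h. Relative to the median shift 7, 10 and 6 rose at these times, with Bcl3, Lif and Irf1 added at 12 h, and 0, 0 and 1 fell. The gap between the counts at 0.5 h and 12 h thus depended on the scaling. The list's median log2 ratio was 0.09 at 0.5 h against -0.03 over all genes, 0.54 at 2 h against -0.09, and 0.25 at 12 h against -0.14. Cebpd encodes C/EBP-delta, a transcription factor of the acute phase response. It gave a signal of 288 (basal), 330.3 (0.5 h), 1114 (2 h) and 474 (12 h), so that the 2 h array stood apart, at a log2 ratio of 1.95. Its second probe set (1456605_at), of lower signal, gave 1.21 at 2 h. Cebpb, which encodes a related C/EBP protein, gave 645, 638, 888 and 733, within 2-fold.

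Nfkbiz encodes IkB-zeta, a nuclear cofactor that NF-kB needs at some secondary targets, Lcn2 among them in macrophages. It gave a signal of 132 (basal), 836 (0.5 h), 390.3 (2 h) and 142 (12 h). On this probe set, its highest in signal, Nfkbiz was high at 0.5 h, when Lcn2 was at 11.3, and within 2-fold of basal at 12 h, when Lcn2 was at 158. At 12 h its probe set 1448728_a_at gave a log2 ratio of 0.22 and 1457404_at gave 0.89. Relative to the median shift 1457404_at stood at 1.09, past 2-fold. A link between Nfkbiz and Lcn2 was not tested. Nfkbia, encoding the inhibitor IkB-alpha, had log2 ratios of 2.02, 1.66 and 1.48 at the 3 times on its probe set of highest signal, and its probe set 1420089_at gave 0.86 at 12 h. The NF-kB subunit genes Relb and Nfkb2 had log2 ratios of 2.77 and 1.53 at 2 h and stood 5.46-fold and 2.83-fold above basal at 12 h; the second Nfkb2 probe set (1429128_x_at) gave 0.63 at 2 h and 0.54 at 12 h, short of 2-fold at both. Irf1, an interferon-response factor, Lif, a cytokine of the interleukin-6 family, and Zfp36, whose protein promotes mRNA decay, were high at 0.5 h, with log2 ratios of 2.66, 2.63 and 2.53. At 12 h these 3 stood at 0.92, 0.93 and -0.27, and relative to the median shift Irf1 and Lif stood at 1.12 and 1.13, past 2-fold. The second Lif probe set (1450160_at) was under the floor in basal cells and at 0.5 h.

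On the interleukin-6 side of the pathway, Il6 gave signals between 8.06 and 10.2. Il6st, the gene of the shared receptor chain gp130, gave 595 (basal), 605 (0.5 h), 656 (2 h) and 993 (12 h), a log2 ratio of 0.74 at 12 h. Socs3, a feedback inhibitor of STAT3 signalling, fell at 12 h to a signal of 131 against 266 in basal cells on 1 probe set, while the other probe sets gave log2 ratios of -0.23 and -0.53, and relative to the median shift the fall was -0.82, short of 2-fold. Jak1 lay between 889.5 and 1089. The ratios of these genes and of the members share the basal array, so likeness between them was not assessed.

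**Figure D4:**
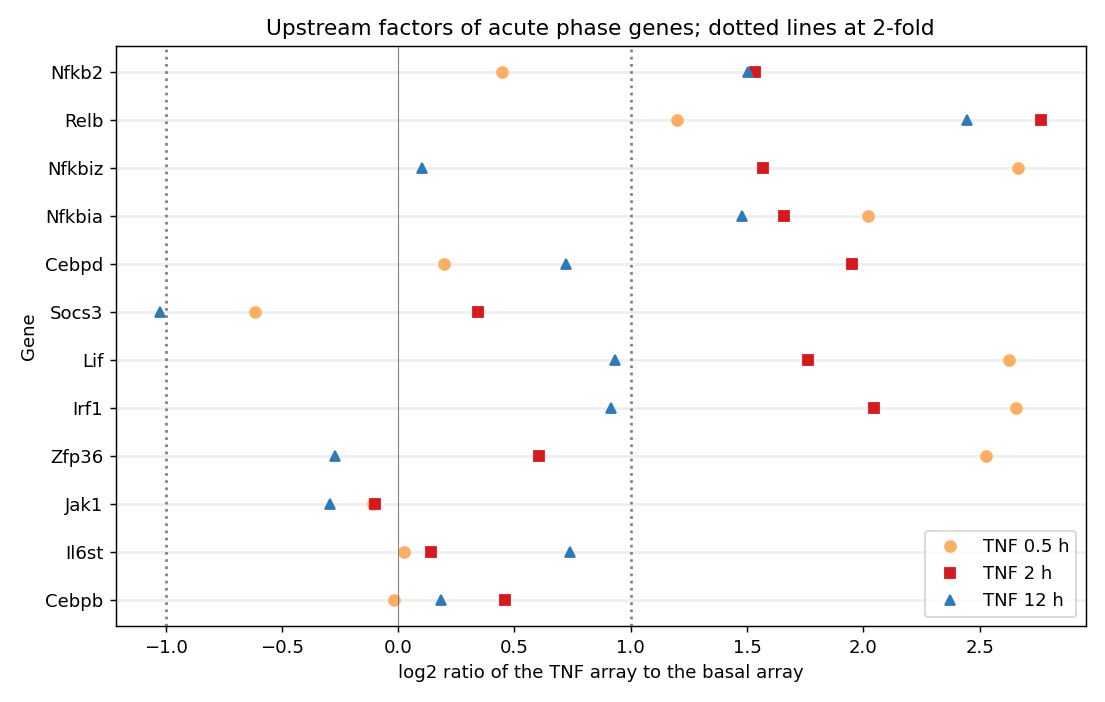
TNF-over-basal log2 ratio at each time for 12 genes upstream of acute phase genes, 1 point per time; dotted lines mark 2-fold. Nfkbiz, Irf1, Lif and Zfp36 are highest at 0.5 h, Cebpd at 2 h stands at 1.95, and Relb, Nfkb2 and Nfkbia are past 2-fold at 12 h.

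The genes nearest in pattern to 5 of the members were found among 11366 single-gene probe sets with a signal over 102 on some array. Nearness was the Euclidean distance between log2 signals centred on each probe set's mean over the 4 arrays. For Lcn2 the nearest were Gbp2, an interferon-inducible GTPase gene, at a distance of 0.78 (12 h fold at least 14.7), Ubd, a ubiquitin-like modifier gene, at 0.97 (6.83-fold), and the class I gene H2-K1 at 0.98 (6.79-fold). Gbp2 gave deposited signals of 1.33 (basal) and 8.24 (0.5 h), both raised to the floor, so its distances depend in part on the floor. The 4 probe sets of H2-K1 ranged from -0.16 to 2.84 in their 12 h log2 ratio, and class I probes can cross-hybridise. For the unlisted probe set, Gbp2 and the collagenase gene Mmp13 (12.1-fold at 12 h) were both at 1.28 and Casp4, an inflammatory caspase gene (at least 17.7-fold), at 1.52, so none lay as close as Gbp2 did to Lcn2. For Saa3 they were U90926 at 0.62, Cdsn at 0.77 and the interferon-induced Ifit1 at 0.80, which like Saa3 had their lowest signal at 0.5 h and their highest at 12 h.

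For C1s1 the nearest were Trib3, a pseudokinase gene of the stress response, at 0.045, Serpinf1, which encodes a secreted serpin, at 0.16 and Cyb5r1 at 0.18. The 2 probe sets of Trib3 gave 0.996 and 1.27 at 12 h, the lower just short of 2-fold. Serpinf1 gave signals of 463 (basal), 497 (0.5 h), 541.5 (2 h) and 1055 (12 h), and both of its probe sets rose at 12 h. For Ptx3 (1418666_at) they were Irak1, a kinase of interleukin-1 and Toll-like receptor signalling, at 0.245, Ifngr2, a chain of the interferon-gamma receptor, at 0.258 and Eif2b2, a translation initiation factor gene, at 0.275. The 4 probe sets of Irak1 ranged from -0.55 to 1.21 at 12 h, so this likeness belongs to 1 of them, 1438120_x_at. The 2 probe sets of Ifngr2 gave 0.50 and 1.21, and the 3 of Eif2b2 ranged from -0.13 to 0.88, with 0 past 2-fold. These names describe shapes over 4 points.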

How the data were processed

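Total RNA (8 µg) was labelled with biotin and hybridised to Affymetrix Mouse Genome 430 2.0 arrays, per the labels' protocols. The deposited values are linear signal intensities, 1 per probe set and array; no source used here gives the signal algorithm or any scaling by the authors. Groups came from the sample titles. The platform annotation gave 1 gene for 34945 probe sets, and 9160 of the 45037 non-control probe sets were not listed in it; symbols were updated by gene ID through RefSeq (GRCm38.p6), whose coordinates were used for promoter windows and not for array features. The members, gene lists and motifs were chosen with earlier results of these data known.

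Signals were raised to the 30th percentile of all values (9.08), and log2 ratios to the basal array were taken with no further scaling. The calculation was tested on simulated data. All members are named. From each list, genes past 2-fold with a signal over 102 were named and up to 3 more of highest signal; other genes past 2-fold, further probe sets, and Il6, Saa2 and C/EBP or NF-kB partners were named after their values were seen. Alternatives were floors at the 20th, 50th and 75th percentile, no floor, median centring, quantile normalization, loess, 3-fold and 1.5-fold rules, and averaging the probe sets of a gene. For the gene lists, ratios relative to the median shift and median centring were added after seeing the data. With 1 array per group, no replicate could be left out. Python 3.11.15, numpy 2.4.6, pandas 2.3.3 and statsmodels 0.14.6 were used. The number of arrays limits the precision of every value.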

Additional observations from a re-analysis of the deposited data

How the results depend on the processing

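The count of member probe sets past 2-fold was 3 at 0.5 h, 2 at 2 h and 6 at 12 h. Median centring, quantile normalization and loess changed no member's call at any of the 3 times. With the floor at the 50th percentile, which left 7 probe sets to analyse, the counts were 0, 2 and 5. With the floor at the 75th percentile, which left 4, they were 0, 1 and 3. Of all probe sets analysed at these floors, 0.871% and 0.512% rose at 12 h and 2.6% and 1.63% fell. The shares at 2 h were 0.75% and 0.415% higher and 0.852% and 0.146% lower. Those at 0.5 h were 0.572% and 0.284% higher and 0.458% and 0.0244% lower. Under the 3-fold rule the counts were 1, 1 and 3, and under the 1.5-fold rule 4, 4 and 6. When probe sets of one gene were averaged they were 3, 1 and 5, of 7 values. Averaged in this way, Ptx3 was not past 2-fold at 2 h or 12 h. Shares over all probe sets are not given for the 3-fold rule, the 1.5-fold rule or averaging. No called ratio changed sign under any of the alternatives run. Over all of these floors and scalings the 12 h log2 ratio ran from 0.63 to 4.05 for Lcn2, from 1.82 to 6.52 for the unlisted probe set, from 0.67 to 2.74 for Cfb, from 1.36 to 1.54 for Saa3, from 1.33 to 1.58 for C1s1 and from 1.20 to 1.39 for Ptx3 (1418666_at). The lowest value for Lcn2, a bound that did not reach 2-fold, came with the floor at the 75th percentile, which is built to shrink ratios of low signals. The lowest values for Cfb and the unlisted probe set are bounds too. The fall of Saa3 at 0.5 h was at -0.47 (log2) or lower with the floor at the 50th percentile, again a bound. Without a floor Cfb was at -1.59 at 0.5 h and 1.55 at 2 h, on signals of at most 14.6. For the gene lists, scalings added after seeing the data moved the rises at 12 h most: upstream factors numbered 3 without scaling, and 6 relative to the median shift or after median centring. Acute phase genes numbered 3, 5 relative to the shift and 4 after centring, and complement regulators 0, 2 and 0. Signals near the floor limit what can be said of Cfb and Saa1.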
